A study of Homo sapiens with 12 samples.

Results

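The transcripts of 35 genes of glucose breakdown were followed in T24 cells, an established human bladder carcinoma line, across 12 poly(A) RNA-seq libraries. The genes were taken by symbol from a list of pathway enzymes and carriers, with no cut-off on a measured value, and all 35 were found among the 60603 genes of the deposited count table. They comprise glucose and lactate transporters, the enzymes of glycolysis, the bifunctional and single-function enzymes that set fructose-2,6-bisphosphate, lactate dehydrogenases, pyruvate dehydrogenase and its kinases, and 3 enzymes of the pentose phosphate pathway. Of the 35, 34 passed the filter on low counts and were tested. PDK4, a pyruvate dehydrogenase kinase, did not pass, with at most 16 counts in a library.

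The series concerns AlissAID, a method that degrades untagged endogenous proteins by tying a binding protein to an auxin-dependent ubiquitin ligase. The 4 groups, of 3 libraries each, crossed a genotype label with a treatment label, so that WT cells and NS1 cells were each sampled untreated and after 5-Ad-IAA. 5-Ad-IAA is a synthetic auxin that acts as the inducer of such systems. The labels do not spell out NS1, which is also the name of a synthetic protein that binds RAS proteins, and they give no dose or duration, no number of clones and no account of which parts of the system the WT cells carry. Nothing in the labels says that the replicates were separate cultures, so the p-values measure the spread between these libraries, which may be technical.

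Glycolysis converts glucose to pyruvate in the cytosol and yields ATP and NADH, and lactate dehydrogenase then regenerates NAD+ by turning pyruvate into lactate. Pyruvate dehydrogenase instead feeds pyruvate into the mitochondria, and pyruvate dehydrogenase kinases switch it off by phosphorylation. The pentose phosphate pathway branches off at glucose-6-phosphate to supply NADPH and ribose-5-phosphate, and transketolase and transaldolase return its sugars to glycolysis. Many tumour lines, bladder carcinoma lines among them, keep high glycolytic flux in the presence of oxygen. Hypoxia-inducible factors and MYC are well known activators of many of these genes.

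Library totals ran from 10593934 to 20266996 counts. Keratin transcripts KRT7, KRT8, KRT18 and KRT19 and the urothelial factors GATA3, FOXA1 and PPARG were present in all groups. The adhesion gene CDH1 and the uroplakins UPK1B and UPK3A were at or near 0, and KRT5 had no count. The mesenchymal genes VIM, FN1, CDH2 and ZEB1 were expressed, and the macrophage marker CD68, also made by other cells, had 7.78 to 23.6 normalised counts. The leukocyte markers PTPRC and CD3E, the red cell marker HBB and the muscle markers DES and MYH7 were at or near 0. The leukocyte gene CD14 had 0.432 to 2.71 normalised counts, and the endothelial gene PECAM1 had 0.0617 to 2.82. In these bulk libraries, fewer cells with a transcript and less of it per cell cannot be told apart.

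Levels of different genes were compared as RPKM (reads scaled to exon length and library size), computed here with the exon length of GENCODE release 29. GAPDH, the dehydrogenase at the centre of the pathway, stood highest with 2610.0 ± 549 RPKM in untreated WT cells (SD, n = 3). ENO1 (an enolase) followed with 812 ± 134, PKM (pyruvate kinase) with 689 ± 125, ALDOA (aldolase) with 597 ± 123, LDHA with 544 ± 101 and TPI1 (triosephosphate isomerase) with 506 ± 116. From ENO1 to TPI1 each mean lay within the SD of its neighbour, but the order was the same in each of the 3 untreated WT libraries. The order also rests on the exon lengths used. PGAM1, a phosphoglycerate mutase, came next with 339 ± 31.6 RPKM, then LDHB with 194 ± 23.1 and PGK1, a phosphoglycerate kinase, with 172 ± 17.9. Exons of GAPDH share 422 bases with the antisense gene AC006064.4, which had 441806 counts against 1193361 for GAPDH over the 12 libraries. The use of strand in counting is not given, so the GAPDH level is uncertain.

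The transport and entry steps stood lower. The glucose transporter SLC2A1 had 45.7 ± 3.96 RPKM in untreated WT cells, and HK1, the hexokinase with the higher level, had 51.5 ± 3.31. PFKP, the platelet-type phosphofructokinase, had 71.2 ± 7.6. Among the pyruvate dehydrogenase kinases PDK3 had 5.32 ± 0.234 RPKM, PDK2 4.09 ± 0.335 and PDK1 1.33 ± 0.213. Low levels were also found for PFKFB4 with 2.45 RPKM and PFKFB2 with 1.21, both of which control fructose-2,6-bisphosphate, and PDK4 was lowest with 0.068. In treated NS1 cells GAPDH again stood highest with 2063 ± 238 RPKM, and PKM with 826 ± 73.7 lay above ENO1 with 602 ± 27.3. Normalised counts summed over all members were set against library totals adjusted by TMM scaling. They equalled 3.11% ± 0.507 in WT cells without 5-Ad-IAA and 3.13% ± 0.273 with it (SD, n = 3). For NS1 libraries the values were 2.73% ± 0.416 and 2.76% ± 0.209, and the ranges overlapped on this scale. Shares of the plain, unadjusted totals were not computed.

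Promoter sequences were available from RefSeq (build GRCh38.p14) for 32 of the members and are printed for 4 whose transcripts differed between groups below, PGK1, PFKP, HK2 and ALDOC. Each is the 250 bases before a RefSeq transcription start, 5′ to 3′ on the gene's strand. For PFKP and HK2, which have 4 and 2 listed starts, the window shown is the first by position that holds ACGTG. Capitals mark ACGTG and GCGTG on either strand (CACGT and CACGC when read on the other), the cores of the element that hypoxia-inducible factors bind. The windows are chrX:78103998-78104247 on the plus strand for PGK1, chr10:3068939-3069188 on the plus strand for PFKP, chr2:74833877-74834126 on the plus strand for HK2 and chr17:28576896-28577145 on the minus strand for ALDOC.
PGK1: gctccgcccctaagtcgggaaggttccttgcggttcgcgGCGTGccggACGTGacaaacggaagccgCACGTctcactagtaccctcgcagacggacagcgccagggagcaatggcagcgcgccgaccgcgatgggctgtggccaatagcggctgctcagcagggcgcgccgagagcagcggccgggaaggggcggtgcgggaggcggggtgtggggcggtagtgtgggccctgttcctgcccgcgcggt
PFKP: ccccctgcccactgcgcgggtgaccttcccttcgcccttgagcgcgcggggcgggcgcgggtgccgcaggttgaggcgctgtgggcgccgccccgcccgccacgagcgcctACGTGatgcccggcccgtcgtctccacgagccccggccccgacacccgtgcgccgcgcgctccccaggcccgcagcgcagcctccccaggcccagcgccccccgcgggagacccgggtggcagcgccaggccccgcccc
HK2: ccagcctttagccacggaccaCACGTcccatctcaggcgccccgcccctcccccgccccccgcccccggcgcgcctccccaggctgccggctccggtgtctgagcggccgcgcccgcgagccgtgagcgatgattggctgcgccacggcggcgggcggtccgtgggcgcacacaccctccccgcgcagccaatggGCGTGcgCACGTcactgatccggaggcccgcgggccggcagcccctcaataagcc
ALDOC: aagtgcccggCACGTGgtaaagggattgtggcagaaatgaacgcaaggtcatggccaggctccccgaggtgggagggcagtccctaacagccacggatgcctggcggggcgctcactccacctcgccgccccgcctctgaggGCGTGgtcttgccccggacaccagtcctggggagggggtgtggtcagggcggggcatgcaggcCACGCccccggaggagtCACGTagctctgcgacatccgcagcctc

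The PGK1 window held 2 copies of ACGTG and 1 of GCGTG, the PFKP window 1 copy of ACGTG, the HK2 window 2 and 1, and the ALDOC window 3 and 2. In ALDOC a pair of the ACGTG copies overlap as the palindrome CACGTG, the E-box that MYC and the MLX partners bind. ACGTG was found on either strand in 38.3% of the 60 windows listed for the 32 members and in 18.5% of all 35116 windows of this length. The shares were 31.7% and 32.2% for GCGTG, and 13.3% and 6.34% for CACGTG, which contains ACGTG. Windows of one gene can overlap, and a match shows only that these letters are there.

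The first comparison set NS1 against WT cells without treatment. Levels are given as normalised CPM, counts scaled to library totals adjusted by TMM, and a gene was called at an edgeR quasi-likelihood adjusted p under 0.05 over all 17775 genes tested. Of the 34 members, 2 were called, both lower in NS1 cells, PGK1 and PFKP, where 12.5% of all genes were called. The median log2 fold change was -0.12 over the members and 8.8e-05 over all genes tested.

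PGK1 (ENSG00000102144.15, chromosome X) makes the first ATP of the lower pathway. It had 868, 916 and 1058 CPM in untreated WT replicates 1, 2 and 3 and 604, 672 and 684 in untreated NS1 cells. With 5-Ad-IAA it had 883, 1013 and 984 CPM in WT cells and 625, 623 and 622 in NS1 cells. Every NS1 library lay below every WT library. Without treatment PGK1 was 1.45-fold lower in NS1 cells (log2 fold change -0.54, SE 0.11, edgeR adjusted p 0.00656). The call held in 6 of 6 fits without one of these libraries and was lost when replicate 2 or replicate 3 was left out of all groups (adjusted p 0.126 and 0.130).

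PFKP (ENSG00000067057.17, chromosome 10) catalyses, with PFKL and PFKM, the committed step of glycolysis. In WT cells it had 314, 334 and 385 CPM without treatment and 298, 367 and 385 with 5-Ad-IAA. In NS1 cells it had 209.9, 261 and 262 CPM without treatment and 234, 259 and 259.8 with 5-Ad-IAA. Here too the lines did not overlap. The untreated difference was -0.49 log2 (SE 0.13, adjusted p 0.0251), 1.41-fold. It missed the threshold without untreated NS1 replicate 1 (edgeR adjusted p 0.0946), untreated NS1 replicate 2 (0.0548) or untreated WT replicate 3 (0.0844). It also did so in a fit of these 6 libraries alone (0.052). Exons of PFKP share 120 bases with AL451164.3 on the same strand, which had 4495 counts against 50940 for PFKP.

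**Figure D1:**
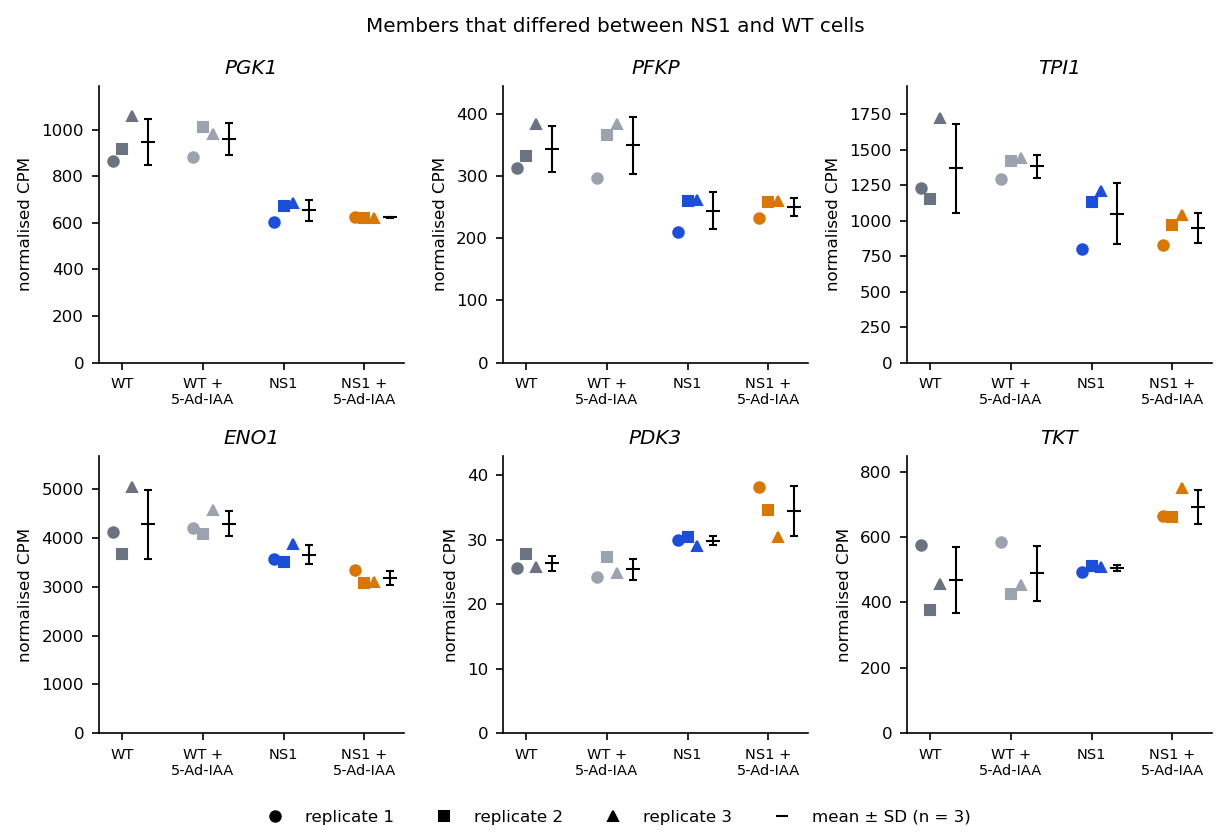
Normalised CPM (y axis, from 0) of the 6 members called between NS1 and WT cells, by group (x axis), with a marker shape per replicate and bars for the mean ± SD (n = 3). PGK1 and PFKP lie lower in all 6 NS1 libraries than in any WT library, and TKT lies highest in the treated NS1 libraries.

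Among members that did not pass in untreated cells, LDHA, the main lactate dehydrogenase subunit, had 2938, 3104 and 4094 CPM in WT cells and 2166, 2518 and 2757 in NS1 cells, with no overlap (log2 fold change -0.45, SE 0.14, adjusted p 0.0601). The groups did not overlap for 6 members, 2 higher and 4 lower in NS1 cells, against 31% of all genes tested. The other members not called ran down to -0.53 for ALDOC (SE 0.29) and up to 0.42 for HK2 (SE 0.22), with adjusted p of 0.263 and 0.226. LDHA, ALDOC and HK2 did pass in an edgeR fit with a replicate block over all libraries (adjusted p 0.0107, 0.00713 and 0.0288). That fit called 22% of all genes tested, and its other calls stand with the dependence on processing. Of the other phosphofructokinases, PFKM had 59.2, 59.8 and 62.9 CPM in untreated WT and 54.4, 82.9 and 81.8 in untreated NS1 cells, where replicate 1 lay below the WT libraries. GAPDH had 6750.1, 6923 and 9668 CPM in WT and 4834, 6674 and 7422 in NS1 cells, which overlap (-0.30, SE 0.18, adjusted p 0.304). Marker means moved both ways between the untreated lines. KRT7 had a mean of 2131 CPM in WT and 3320.4 in NS1 cells, with overlapping libraries, and KRT19 had 214 and 367. KRT8 had 1878 and 1716, KRT18 1098 and 870.3, and EPCAM 3.03 and 0.945. Of the mesenchymal genes VIM had 69.5 and 30.4, and CDH2 92.3 and 138. The part of these markers in the results was not tested.

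With 5-Ad-IAA in both lines, 6 members were called between NS1 and WT cells, against 28.2% of all genes tested. Of these, 4 lay lower in NS1 cells (PFKP, TPI1, PGK1 and ENO1) and 2 lay higher (PDK3 and TKT). Scaling by plain library totals gave 7 lower and 1 higher, against 3182 lower and 1863 higher of 17775 genes. TKT was then no longer called (edgeR adjusted p 0.0688). The median log2 fold change was -0.09 over the members, and the groups did not overlap for 12 of them, 4 higher and 8 lower, against 43.4% of all genes tested. PGK1 again had the lowest adjusted p among the members, differing by -0.62 log2 (SE 0.11, 0.00091), and PFKP differed by -0.48 (SE 0.13, 0.0143).

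TPI1 (ENSG00000111669.15, chromosome 12) interconverts the triose phosphates that aldolase makes. Under 5-Ad-IAA it had 1290.4, 1419 and 1439 CPM in WT cells and 831, 968 and 1042 in NS1 cells, a difference of -0.55 log2 (SE 0.18, adjusted p 0.0338), with no overlap. Without treatment it had 1228, 1149 and 1725 in WT cells and 802, 1133 and 1212 in NS1 cells, which overlap (-0.38, SE 0.18, adjusted p 0.176). Pseudogenes named after TPI1 held counts equal to 30.7% of its own, so reads of the near-identical copies may be shared and its value is uncertain.

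ENO1 (ENSG00000074800.16, chromosome 1) makes phosphoenolpyruvate, the substrate of pyruvate kinase. With 5-Ad-IAA it had 4216, 4080.4 and 4585 CPM in WT cells and 3339, 3075 and 3108 in NS1 cells, and the groups did not overlap. The difference was -0.44 log2 (SE 0.12, adjusted p 0.0186), or 1.35-fold. Without treatment the values were 4134, 3664 and 5056 in WT cells and 3575, 3509.5 and 3876 in NS1 cells, which overlap (-0.23, SE 0.12, adjusted p 0.251).

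PDK3 (ENSG00000067992.15, chromosome X) is the pyruvate dehydrogenase kinase with the highest level here. With 5-Ad-IAA it had 24.2, 27.3 and 24.8 CPM in WT cells and 38.2, 34.7 and 30.5 in NS1 cells, a 1.36-fold difference (log2 fold change 0.44, SE 0.11, adjusted p 0.00762). Untreated cells had 25.7, 27.7 and 25.7 CPM in WT and 30.0, 30.4 and 29 in NS1. All NS1 libraries lay above all WT libraries in both conditions, though the untreated difference of 0.18 (SE 0.11) had an adjusted p of 0.305.

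TKT (ENSG00000163931.16, chromosome 3) encodes transketolase, which moves carbon between the pentose phosphate pathway and glycolysis. With 5-Ad-IAA it had 586, 426 and 454 CPM in WT cells and 665, 660.4 and 750.3 in NS1 cells, higher by 0.50 on the log2 scale (SE 0.15, adjusted p 0.0276). Untreated NS1 cells, with 493, 511 and 509.5 CPM, lay within the spread of untreated WT cells, with 577, 376 and 456 (0.10, SE 0.15, adjusted p 0.713).

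Of these 6 calls under 5-Ad-IAA, PGK1 and PDK3 held in 6 of 6 fits without one of the treated libraries. ENO1 was lost without NS1 replicate 2 (adjusted p 0.0641), WT replicate 3 (0.0681) or NS1 replicate 3 (0.0617), and PFKP without WT replicate 2 (0.0534) or WT replicate 3 (0.0632). TPI1 was lost without NS1 replicate 1 (0.104), WT replicate 2 (0.0867), NS1 replicate 2 (0.0768) or WT replicate 3 (0.0914), and TKT without WT replicate 2 (0.115), NS1 replicate 2 (0.0513), WT replicate 3 (0.0995) or NS1 replicate 3 (0.0837). Without replicate 2 in any group none of the 6 was called, and without replicate 3 PGK1 and PDK3 were (0.0289 and 0.0497). Without replicate 1 PDK3 missed the threshold (0.051).

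**Figure D2:**
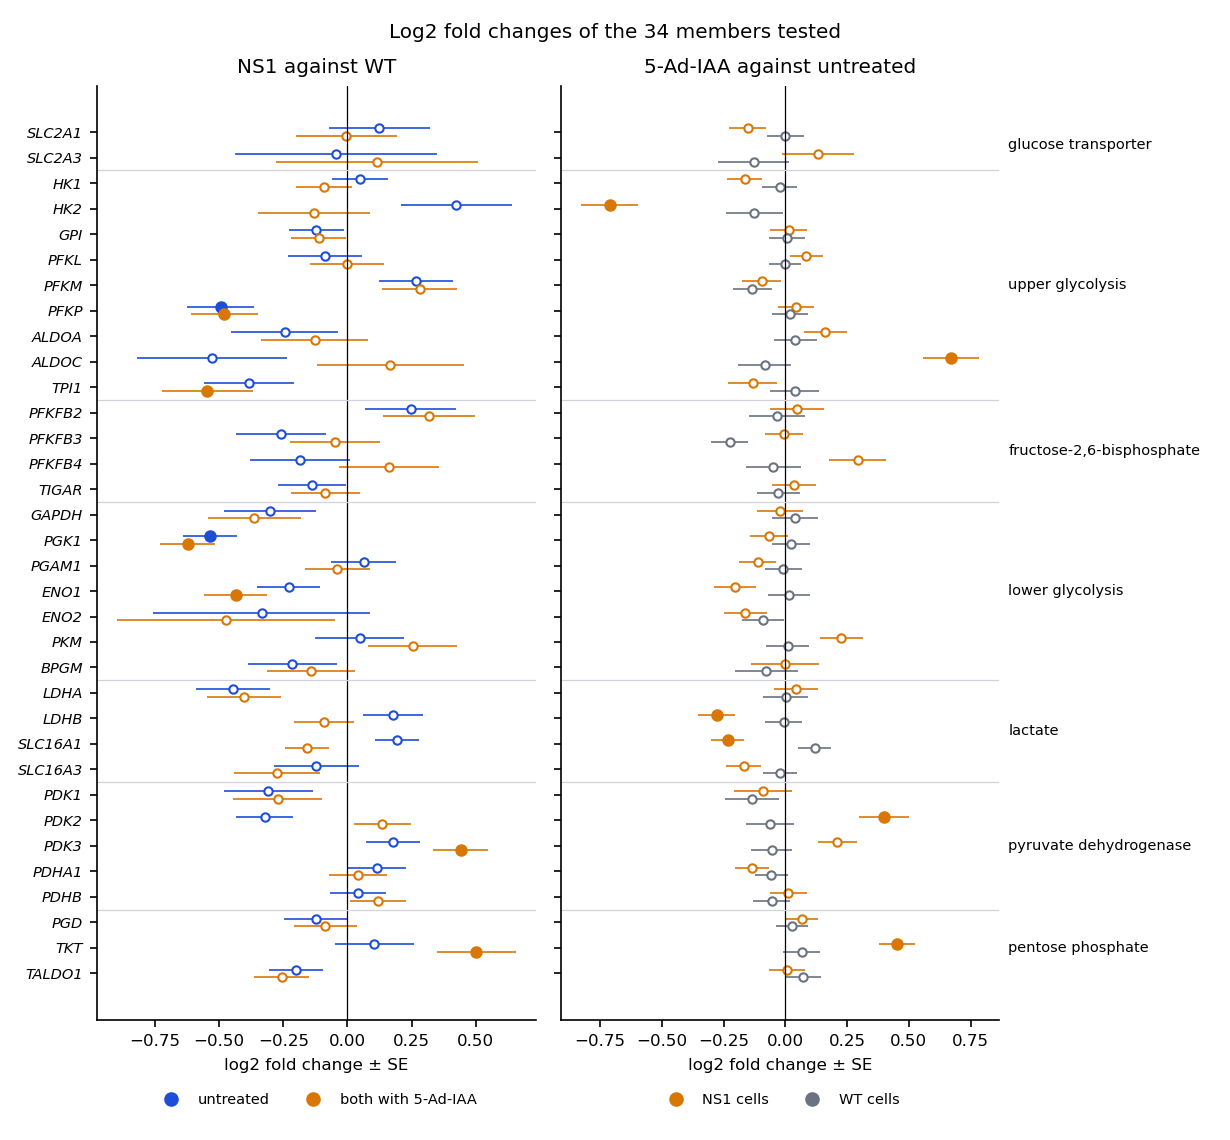
Log2 fold changes with their standard errors (x axes) for the 34 members tested (y axis, grouped by role), from the edgeR fit with a mean per group for NS1 against WT (left) and from the fit with paired replicates for 5-Ad-IAA against untreated (right). Filled points passed an adjusted p of 0.05, and in WT cells (grey) no point did.

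The inducer comparison in WT cells showed what the compound did without the NS1 genotype. No member was called, as for all genes tested (0%), and 0 members had an unadjusted p under 0.05, against 94 of all genes. Log2 fold changes ran from -0.22 for PFKFB3 (SE 0.18), which makes fructose-2,6-bisphosphate, to 0.12 for SLC16A1 (SE 0.09). DESeq2 also called 0 members, and 0 were called in the paired fit described next. In that paired fit 1 member had an unadjusted p under 0.05, against 476 of all genes. Leaving out replicate 3 from the paired fit gave 1 call, PFKFB3, at -0.29 log2 (SE 0.08, edgeR adjusted p 0.0453), and in that fit 437 of 18186 genes were called.

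In NS1 cells 0 members were called for 5-Ad-IAA against no treatment in the unpaired edgeR fit, against 6.15% of all genes tested. At an unadjusted p under 0.05 there were 5 members, against 3689 of all 17775 genes. DESeq2 called 2 members, HK2 and PDK2, against 1472 of 34076 genes. Untreated and treated libraries with the same replicate number deviated together from their group means, and the correlations stand with the processing. In the paired edgeR fit, in which each replicate number of a line had its own term, 6 members were called, 3 higher (ALDOC, PDK2, TKT) and 3 lower (HK2, LDHB, SLC16A1), against 25.9% of all genes tested. The median log2 fold change was 0.0034 over the members, with 17 higher and 17 lower. PKM, which makes the last ATP of the pathway, had 4841, 6565 and 6924 CPM without and 6413, 7162 and 7669 with 5-Ad-IAA in NS1 cells, higher in each pair but short of the threshold (paired 0.23, adjusted p 0.0704). PDK3 was similar, with a paired change of 0.21 (adjusted p 0.0691).

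HK2 (ENSG00000159399.9, chr2:74833981-74893359 in GENCODE 29 on GRCh38), the inducible hexokinase that traps glucose as glucose-6-phosphate, was lowered. Untreated NS1 replicates 1, 2 and 3 had 70.1, 90.2 and 93.2 CPM, and treated ones 40.7, 71.1 and 45.8. WT cells had 53.1, 81.1 and 54.8 CPM without and 47.7, 62.8 and 62.0 with 5-Ad-IAA. HK2 fell in each NS1 pair, although treated replicate 2 lay above untreated replicate 1. The paired change was -0.71 log2 (SE 0.12, adjusted p 0.000393), a 1.64-fold decrease, and the unpaired one -0.69 (SE 0.22, adjusted p 0.0812). HK1, the constitutive hexokinase, had 352, 314 and 341 CPM before and 337, 286 and 278 after 5-Ad-IAA in NS1 cells, which overlap (paired -0.16, SE 0.07, adjusted p 0.112).

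ALDOC (ENSG00000109107.14, chromosome 17), the brain-type aldolase, moved the other way. It had 11.3, 22.6 and 24.3 CPM in untreated NS1 cells and 23.9, 31.8 and 33.8 with 5-Ad-IAA, higher in each pair. In WT cells it had 20.5, 29.4 and 34 CPM without and 17.8, 31.2 and 31.0 with the compound. The paired change in NS1 cells was 0.67 log2 (SE 0.11, adjusted p 0.000516), or 1.59-fold, and the unpaired one 0.63 (SE 0.29, adjusted p 0.242). Treated NS1 cells thus lay within the range of WT cells, and untreated replicate 1 was the lowest library of all. Exons of ALDOC share 296 bases with the antisense gene AC005726.4, and the use of strand in counting is not given in the sources used here. ALDOA, the main aldolase, shares 1657 exon bases with AC093512.2 on the same strand, so its counts are uncertain too. It had 1375, 2163 and 2388 CPM in untreated and 1690.3, 2369 and 2479.8 in treated NS1 cells, with an unpaired change of 0.14 (SE 0.21, adjusted p 0.773).

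TKT rose from 493, 511 and 509.5 CPM to 665, 660.4 and 750.3 in NS1 cells, and these groups did not overlap. The paired change was 0.45 log2 (SE 0.07, adjusted p 0.000371), and the unpaired one 0.46 (SE 0.15, adjusted p 0.103). In WT cells the paired change was 0.07 (SE 0.07).

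PDK2 (ENSG00000005882.11, chr17:50094737-50112152), a pyruvate dehydrogenase kinase, had 17.5, 19.5 and 16.8 CPM in untreated NS1 cells and 25.6, 21.9 and 23.2 with 5-Ad-IAA, without overlap. WT cells had 23.2, 20.3 and 23.8 CPM without and 21.3, 22.1 and 21.0 with it. The paired change in NS1 cells was 0.40 log2 (SE 0.10, adjusted p 0.00805), and the unpaired one 0.39 (SE 0.11, adjusted p 0.0533). Its exons share 2113 bases with SAMD14 on the opposite strand, so reads of either gene may have been counted for the other.

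LDHB (ENSG00000111716.12, chr12:21635342-21757857), the heart-type lactate dehydrogenase subunit, had 591, 667 and 709.9 CPM in untreated NS1 cells and 517, 526 and 577 with 5-Ad-IAA. The treated NS1 libraries lay below all untreated NS1 ones. In WT cells LDHB had 632, 501 and 606 CPM without and 631, 548 and 547.9 with the compound. Treated NS1 libraries thus lay within the range of WT cells. LDHB shares 997 exon bases with AC010197.2 on the same strand, which had 97629 counts against 102268 for LDHB over the 12 libraries, and how reads of overlapping genes were assigned is not given in the sources used here. The paired change in NS1 cells was -0.28 log2 (SE 0.08, edgeR adjusted p 0.0135) and the unpaired one -0.28 (SE 0.12, adjusted p 0.19). In WT cells the paired change was -0.006 (SE 0.08). LDHB was not called for a difference of the inducer effect between the lines in the paired fit. Its partner LDHA had 2509.9, 2585 and 2531 CPM in treated NS1 cells, an unpaired change of 0.04 (SE 0.14, adjusted p 0.932).

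SLC16A1 (ENSG00000155380.11, chr1:112911847-112957013) encodes MCT1, a carrier that moves lactate across the plasma membrane. It had 123, 113 and 118 CPM in untreated NS1 cells and 106, 97.6 and 97.2 with 5-Ad-IAA. In WT cells it had 104, 102 and 104 CPM without and 117, 111 and 108 with the compound, so the treated libraries lay above the untreated ones there and below them in NS1 cells. The paired change was -0.23 log2 in NS1 cells (SE 0.07, adjusted p 0.0172) and 0.12 in WT cells (SE 0.07, adjusted p 1).

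**Figure D3:**
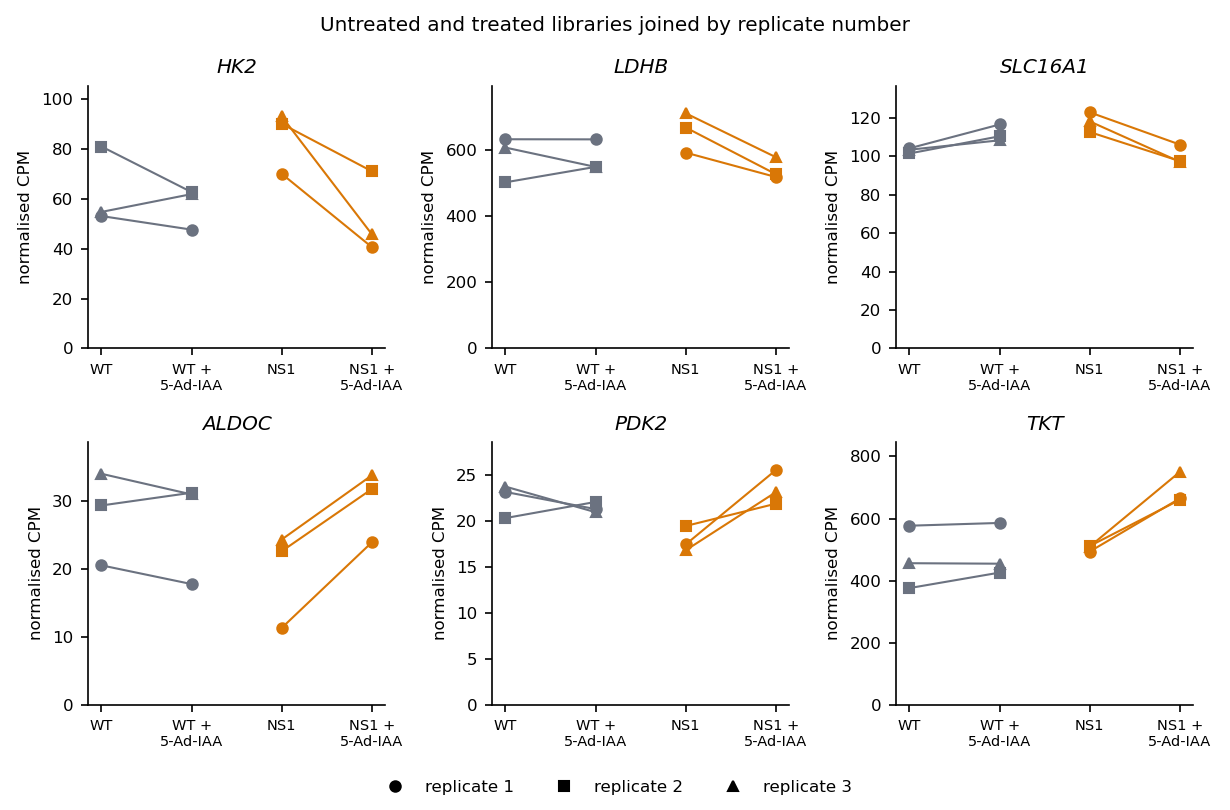
Normalised CPM (y axis, from 0) of the 6 members called in NS1 cells in the paired fit, with lines that join untreated and treated libraries of the same replicate number in WT cells (grey) and NS1 cells (orange). HK2, LDHB and SLC16A1 fall in each NS1 pair, and ALDOC, PDK2 and TKT rise in each.

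When a replicate number was left out of the paired fit, a setting chosen after seeing the data, ALDOC, HK2 and TKT were called in all 3 fits. LDHB and SLC16A1 were lost without replicate 1 and without replicate 2, and PDK2 was lost without replicate 1. The paired fit called 3 members when replicate 1 was left out, 4 when replicate 2 was, and 10 when replicate 3 was. Of all genes it called 1822 of 17667, 3183 of 18070 and 4676 of 18186 in these fits. In the unpaired edgeR fit, HK2 was called without treated NS1 replicate 2 (adjusted p 0.0309). Without replicate 1 the unpaired fit called 3 members, among them ALDOC (0.0187) and TKT (0.0241), against 2021 of 17667 genes.

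The signs agreed in 3 of 3 NS1 pairs for 9 members that were higher and 8 that were lower, against 57.6% of all genes tested. In WT pairs the counts were 2 and 7, against 18.6%. The unpaired groups did not overlap in NS1 cells for 6 members (27.2% of all genes tested) and in WT cells for 2 (3.41%).

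Whether the inducer effect differed between the lines was tested by the interaction of genotype and treatment. In the unpaired fit 0 members were called, against 0.0225% of all genes tested. At an unadjusted p under 0.05 were 2 members, against 2196 of all 17775 genes. DESeq2 called 0 members as well, against 375 of 34076 genes. In the paired fit 5 were called, ALDOC, PDK2, TKT, HK2 and SLC16A1, against 14% of all genes tested. The paired effect in NS1 minus that in WT cells was -0.59 log2 for HK2 (SE 0.16, edgeR adjusted p 0.0271) and 0.39 for TKT (SE 0.10, adjusted p 0.0218). Without replicate 1 in the paired fit 0 members were called, against 417 of 17667 genes.

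Isoform families were described by the share of each gene in its family's RPKM, with no test, since 3 against 3 libraries cannot give a permutation p below 0.1. PFKP made up 72.9% ± 1.07 of phosphofructokinase transcripts in untreated WT cells and 73.7% ± 1.87 with 5-Ad-IAA (SD, n = 3). In NS1 cells its share was 65.2% ± 1.26 and 65.6% ± 1.73. All NS1 libraries lay below all WT libraries. The share of PFKM, the muscle type, was 8.52% ± 0.562 in untreated WT cells and 12.8% ± 1.16 in untreated NS1 cells. That of PFKL, the liver type, was 18.6% ± 1.06 and 22.0% ± 0.229. Exons of PFKM share 628 bases with SENP1 on the opposite strand, which had 3963 counts against 10899 for PFKM. PFKP also overlaps another gene, so these shares are uncertain.

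PDK3 made up 49.2% ± 1.92 of the kinase transcripts in untreated WT cells and 57.7% ± 1.52 in untreated NS1 cells, with 49.5% ± 0.361 and 56.2% ± 1.54 with 5-Ad-IAA. The lines did not overlap. PDK1, a classical hypoxia-responsive kinase, had 12.3% ± 1.88 in WT and 10.3% ± 1.38 in NS1 cells without treatment, which overlapped, and 11.7% ± 1.01 and 8.15% ± 1.62 with 5-Ad-IAA, which did not. Exons of PDK1 share 445 bases with the antisense gene AC078883.1, which had 2209 counts against 2936 for PDK1, so its share is uncertain. PDK4 stayed near 1% or below in every group mean.

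LDHB made up 26.5% ± 3.86 of lactate dehydrogenase transcripts in untreated WT cells and 35.6% ± 0.669 in untreated NS1 cells, which did not overlap. With 5-Ad-IAA it had 26.5% ± 3.99 in WT and 30.7% ± 1.34 in NS1 cells, which did overlap, with treated WT replicate 1 at 31.1%. HK2 made up 16.8% ± 4.1 of HK1 plus HK2 in WT cells without and 15.7% ± 1.48 with 5-Ad-IAA. In NS1 cells its share was 20.7% ± 3.14 without and 15.4% ± 4.75 with the compound, and all groups overlapped. ALDOA with over 98% and ENO1 with 98.0% ± 0.799 in untreated WT cells dominated their families.

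Replicate 1 stood apart in many members. In all 4 groups it lay below the mean of replicates 2 and 3 for 19 of the 34 members tested (55.9%), against 17.1% of all genes tested, and above it for 3 (8.82% against 17.0%). ENO2, the neuronal-type enolase, had 38.4, 82.9 and 89.3 CPM in untreated WT replicates 1, 2 and 3 and 27.9, 66.9 and 72.1 in untreated NS1 cells. With 5-Ad-IAA it had 33.9, 84.1 and 82.3 in WT cells and 29.7, 58.5 and 56.2 in NS1 cells. Its level in replicate 1 was on average 2.25-fold below the other replicates. SLC2A3, a glucose transporter, was 1.97-fold lower and ALDOC 1.65-fold lower on average. Replicate 1 had the most counts in each group, and the labels give no batch. The part of depth or of a batch in these values was not tested. Pseudogenes named after SLC2A3 held counts equal to 46.5% of its own.

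**Figure D4:**
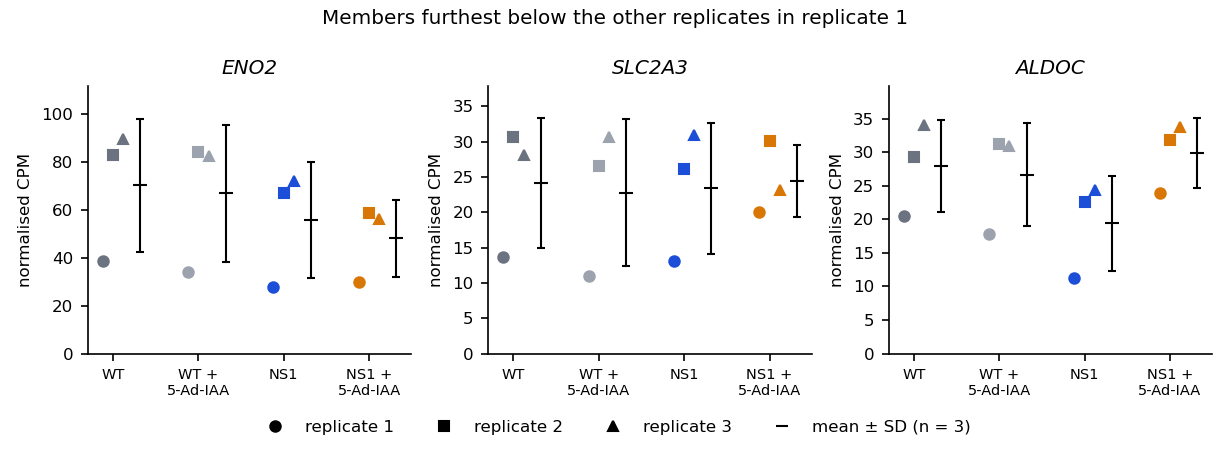
Normalised CPM (y axis, from 0) of ENO2, SLC2A3 and ALDOC by group, with a marker shape per replicate and bars for the mean ± SD (n = 3). Replicate 1 (circles) lies lowest of the 3 replicates in each group for these genes.

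Other genes of the pathways, 51 in a companion list of which 34 passed the filter, showed 2 calls for 5-Ad-IAA in NS1 cells, both higher, against 6.15% of all genes tested. H6PD, an enzyme of the endoplasmic reticulum that makes NADPH, rose by 0.71 (SE 0.18, adjusted p 0.0388). H6PD was lost in a fit of the NS1 libraries alone (0.0552), with library totals (0.0613), and without any of 5 of the 6 NS1 libraries (0.0682 to 0.142), treated replicate 1 being the exception. It was also lost without untreated WT replicate 2 (0.051), treated WT replicate 2 (0.0563) or treated WT replicate 3 (0.0572), and without replicate 2 or 3 in all groups (0.341 in each). In the paired fit it was called in all 3 fits without a replicate number. The full paired fit called 15 of the 34, 7 higher and 8 lower, against 25.9% of all genes tested. Among the lower ones were DLAT, a pyruvate dehydrogenase subunit (-0.33, SE 0.07), and PGAM5 (-0.48, SE 0.08). Despite its name, PGAM5 is a protein phosphatase and not a glycolytic mutase, though it is counted in this list. The interaction in the paired fit was 0.78 for H6PD (SE 0.14, adjusted p 0.00171). Of the member enzymes of the pentose phosphate pathway, PGD had an unpaired change of 0.07 (SE 0.12) and TALDO1 of 0.01 (SE 0.11).

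Between the lines 6 of the 34 companions were called without treatment, 1 higher and 5 lower in NS1 cells, against 12.5% of all genes tested. With 5-Ad-IAA 12 were called, 3 higher and 9 lower, against 28.2%. SHPK, a kinase that makes sedoheptulose-7-phosphate, lay lower in both (-0.46, SE 0.09, and -0.73, SE 0.09). SLC16A7, the monocarboxylate carrier MCT2, lay higher in both (1.23, SE 0.17, and 0.85, SE 0.17).

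A list of 20 hypoxia-inducible factor targets outside glycolysis, all tested, had 0 calls for 5-Ad-IAA in NS1 cells in the unpaired edgeR fit (6.15% of all genes tested). There 3 had an unadjusted p under 0.05, against 3689 of 17775 genes. DESeq2 called 2, against 1472 of 34076 genes. The paired fit called 7, 6 higher and 1 lower, against 25.9% of all genes tested, among them MXI1 (0.69, SE 0.08) and EGLN3 (1.13, SE 0.20). EGLN3 was low, with 0.864, 2.25 and 2.69 CPM in untreated NS1 cells and 2.18, 4.19 and 6.31 with 5-Ad-IAA, which overlap. Between the untreated lines 3 were called, 2 higher and 1 lower in NS1 cells, against 12.5% of all genes tested, and the median of the list was 0.02. Between the lines with 5-Ad-IAA 9 were called (28.2% of all genes tested), 8 higher in NS1 cells, with MXI1 at 1.43 (SE 0.22) and KDM3A at 0.71 (SE 0.13), and 1 lower. The median of the list in that comparison was 0.34. Over the glycolysis and pentose phosphate members the medians were -0.12 without and -0.09 with 5-Ad-IAA.

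Of 18 regulators, 16 were tested. Without treatment 6 were called between the lines, 5 higher and 1 lower in NS1 cells, against 12.5% of all genes tested. With 5-Ad-IAA 9 were called, 7 higher and 2 lower, against 28.2%. EPAS1, the gene of HIF-2alpha, had 290.1, 388 and 306 CPM in untreated WT cells and 579.6, 698 and 679.7 in untreated NS1 cells, where it was higher by 0.99 log2 (SE 0.16, adjusted p 0.00188). With 5-Ad-IAA the difference was 1.51 (SE 0.16, adjusted p 3.35e-05). HIF1A was higher by 0.62 with 5-Ad-IAA (SE 0.12, adjusted p 0.00248), and MLX, the partner of the glucose-sensing factor MLXIP, was lower by 0.76 on the log2 scale (-0.76, SE 0.11). HIF1AN was also called higher in NS1 cells in both comparisons. Its WT and NS1 means were 71.4 and 94.5 CPM without and 72.7 and 106 with 5-Ad-IAA. VHL was called higher only with 5-Ad-IAA, and MYC only without treatment.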

How the data were processed

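Poly(A) RNA of 12 libraries, 3 per group, was sequenced. The authors deposited raw read counts for each gene, with no scaling. STAR 2.7.3a, featureCounts 1.6.4 and hg38 are named in the submitters' processing notes, and the annotation and strand setting are not given in the sources used here. Genes were matched by identifier without version, and 60261 had a symbol in the name table. Positions are from GENCODE 29 where the identifier version is the same.

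The test was edgeR's quasi-likelihood test (edgeR 4.0.16, R 4.3.3). The filter filterByExpr left 17775 genes, library totals were adjusted by TMM, and all 12 libraries entered a single model with 1 mean for each group. Tests were two-sided, and p-values were adjusted by Benjamini-Hochberg over all genes tested. The standard error is the size of the log2 fold change divided by the square root of F. Comparisons that share a group are not independent. The script was tested on simulated data, with 200 genes changed in the treated NS1 libraries. The unpaired fit recovered 68% of genes changed by 1 log2 and 91% of those changed by 2 log2, with 8 false calls. Smaller changes were not simulated. Library totals ran from 10593934 to 20266996, and counting error sets the precision of low genes.

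Same-numbered untreated and treated libraries of a line correlated in their deviations from the group means (0.713, 0.386 and 0.384 in NS1 cells, 0.752, 0.385 and 0.256 in WT cells), so a fit with a block per number within each line (the paired fit) stands beside the inducer results. Between the lines such correlations went down to 0.00601, so no pairing was used there. Alternatives were other scalings and filters, DESeq2 1.42.0, other designs and left-out libraries.

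The members and lists were chosen with earlier results of these data known. Values per library are given for members called in either fit, and up to 6 genes of each other list with the lowest adjusted p are named. HIF1AN, VHL and MYC were named without regard to that order. Members named for their level or range, such as GAPDH, PKM, PGAM1, PDK4, SLC2A1, PFKFB3, PGD and TALDO1, and the markers and overlapping genes, were chosen after their values were seen. Some genes of the lists are not reported here.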

Additional observations from a re-analysis of the deposited data

Results flagged for a closer look

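In the paired edgeR fit 5 members had an inducer effect that differed between the lines, by a test of the interaction of genotype and treatment. The effect in NS1 cells minus that in WT cells was 0.76 log2 for ALDOC (SE 0.16, adjusted p 0.00498), 0.46 for PDK2 (SE 0.14, adjusted p 0.0383) and 0.39 for TKT (SE 0.10, adjusted p 0.0218). It was -0.59 for HK2 (SE 0.16, adjusted p 0.0271) and -0.35 for SLC16A1 (SE 0.09, adjusted p 0.0209). None of the 5 passed in the unpaired edgeR fit, where their adjusted p ran from 0.225 for PDK2 to 0.547 for ALDOC. In the paired fit without replicate 1 none passed. ALDOC, TKT, HK2 and PDK2 passed without replicate 2, and ALDOC, TKT and SLC16A1 without replicate 3.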

How the results depend on the processing

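For 5-Ad-IAA in NS1 cells, 0 members were called in the unpaired fit. The count was 3 with no filter on low counts (1801 of 34084 genes) and 1 with at least 10 counts in every library (1084 of 15462). It was 2 with DESeq2 (1472 of 34076) and 1 with only the groups compared (1007 of 17221). It was 5 with a replicate block over all libraries and 6 with the block within each line, against 13.6% and 25.9% of all genes tested. Left-out libraries or numbers gave 0 to 10. In the paired fit the count was 3, 4 and 10 without replicate 1, 2 and 3, against 1822 of 17667, 3183 of 18070 and 4676 of 18186 genes. In WT cells the count was 0 in these settings and 0 to 1 with left-out libraries. Between the untreated lines 2 became 5 with no filter (2978 of 34084 genes) and 1 with only the groups compared (1603 of 17230). Left-out libraries gave 0 to 6, with 6 without replicate 1 (3466 of 17667 genes). There were 0 without replicate 2 (204 of 18070) or 3 (182 of 18186). With 5-Ad-IAA in both lines 6 became 0 to 8 with left-out libraries, 0 without replicate 2 (1632 of 18070 genes). The interaction had 0 calls, 1 with a replicate block over all libraries (634 of 17775 genes) and 5 with the block within each line (14%). Left-out libraries gave 0 to 6. The paired fit without replicate 1, 2 and 3 gave 0, 4 and 6, against 417 of 17667, 1420 of 18070 and 3725 of 18186 genes.

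Same-numbered libraries of the compared groups correlated only weakly across the lines, from 0.0719 to 0.19 without treatment and from 0.00601 to 0.153 with 5-Ad-IAA. With a replicate block between the lines the count was 8 without treatment (HK2 higher, with ALDOC, ENO2, LDHA, PFKFB3, PFKP, PGK1 and TPI1 lower). It was 12 with 5-Ad-IAA (3 higher, 9 lower). These were 23.5% and 35.3% of the members tested, against 22% and 37.5% of all genes tested. The causes of these shifts were not tested. The fits without replicate 1, 2 or 3 of the paired design were chosen after seeing the data. None of the calls of either fit changed its direction in these settings. SLC2A3, which neither fit called, did: its paired change in NS1 cells was 0.13, and -0.10 without replicate 1, and its interaction was 0.26 and -0.06.

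With the longest transcript in place of the exon length, the mean share over the 12 libraries was 87.8% in place of 82.8% for HK1, 17.7% in place of 20.5% for PFKL, 75.7% in place of 70.2% for LDHA, 16.3% in place of 23.0% for SLC16A1 and 8.94% in place of 10.6% for PDK1. Members with few counts, such as PDK4 and BPGM, are limited by depth.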
